A study of Mus musculus with 6 samples.

Results

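Leukocyte integrins and the adhesion molecules they bind were followed in RNA from whole mouse liver. The 9 genes were the rows of the count table with the symbols Itgb2, Itgal, Itgam, Itgax, Itga4, Itgb7, Icam1, Icam2 and Vcam1, that is 6 integrin chains and 3 ligands among 52459 genes. They were selected on earlier results of the same livers, in which Itgb2 had been noticed for its fall. The difference of Itgb2 between the groups is therefore given as a description with no test, and the other 8 genes belong to the family of a gene chosen that way. All 9 passed the filter on low counts, which left 17032 genes to be tested.

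The livers came from 6 male C57BL6J mice of the Alb-Cre/Cas9 F1 generation, in which the albumin promoter, active in hepatocytes, drives Cre, and Cre switches on the nuclease Cas9 from a CAG promoter. Each mouse received an AAV8 vector at 4 to 5 weeks of age, with a guide RNA against GFP in the 3 controls (sgCtrl, livers 5.1, 7.1 and 7.2) and a guide RNA against Prdx2, a peroxide-reducing enzyme, in the other 3 (sgPrdx2, livers 1.1, 1.3 and 3.2). All 6 mice were injected with the carcinogen diethylnitrosamine (DEN, 100 mg/kg) 3 weeks after the vector, were fed a choline-deficient high-fat diet (CDAHFD) from 1 week later for 6 months, and were 8 months old at sampling. By this design the edit was directed to hepatocytes, whereas the genes described here are mainly known from blood cells and endothelium. The RNA came from whole liver, and which cells the reads came from was not measured. The comparison addresses how the RNA of these adhesion genes in whole liver differed when Prdx2 was targeted in hepatocytes.

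Integrins are surface receptors made of an α and a β chain. The β2 chain, encoded by Itgb2, pairs with the α chains of Itgal (LFA-1), Itgam (Mac-1, a complement receptor of macrophages and neutrophils) and Itgax (CD11c, high in dendritic cells and in many macrophages) and is restricted to leukocytes. The α4 chain of Itga4 pairs with β1 or with β7, the product of Itgb7. ICAM-1 and ICAM-2 on endothelium are bound by β2 integrins, and VCAM-1 is bound by α4 integrins. In the liver these contacts hold leukocytes in the sinusoids and let them enter inflamed tissue.

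In the deposited table, total counts ranged from 37462102 to 56865293 per liver, so that 3 counts stood for 0.0555 to 0.0921 CPM (counts scaled to a common library size), counting error only. Levels are given as CPM after TMM normalization, which scales each library so that most genes do not differ. Its factors lay between 1.12 and 1.17 in sgCtrl livers and between 0.805 and 0.951 in sgPrdx2 livers. Prdx2 RNA was 119 ± 11.6 CPM in sgCtrl and 120.0 ± 26.1 CPM in sgPrdx2 livers (SD, n = 3 each), with overlapping groups, and so did not check the labels. Liver 3.2 stood apart from the other sgPrdx2 livers: relative to their mean, the median gene with at most 2760 bases of exon differed by 0.26 (log2) and the median gene with at least 5310 bases by -0.25, while no other liver differed from its own group by more than 0.14 in either class. Members are therefore also given without liver 3.2 where that bears on a call.

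Itgam, Itgax and Itgal lie on 1 chromosome. On GRCm38 (GENCODE M21), Itgal is at chr7:127296260-127335138, Itgam at chr7:128062640-128118491 and Itgax at chr7:128129547-128150657, all on the plus strand, with 11.1 kb between Itgam and Itgax and 727.5 kb between Itgal and Itgam. Itgad, another β2 partner, starts 3.7 kb after Itgax. Itgb2 is at chr10:77530252-77565708 (plus strand), Itga4 at chr2:79255426-79333123 (plus), Itgb7 at chr15:102215995-102231944 (minus), Icam1 at chr9:21015985-21028817 (plus), Icam2 at chr11:106377656-106388075 (minus) and Vcam1 at chr3:116109949-116129688 (minus).

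RefSeq promoters (GRCm38.p6, 250 bases before to 50 after the start) were at hand for 5 of the 9 members, and 3 are shown: those of the neighbours Itgam and Itgax, whose RNA differed in how far it was lower in sgPrdx2 livers, and that of Icam1, the ligand with the steadiest level. Capitals mark exact matches on either strand to GAGGAA (the core bound by the myeloid factor PU.1 and other ETS factors), GGAAATTCC (a κB site), TATAAA (a core promoter element bound by the general transcription machinery) and GGGCGG (bound by SP1). A match on the opposite strand shows the first of them as TTCCTC, and likewise shows the last of these motifs in its complementary letters, as CCGCCC. No motif overlapped another in these windows.
Itgam, chr7:128062390-128062689, plus strand: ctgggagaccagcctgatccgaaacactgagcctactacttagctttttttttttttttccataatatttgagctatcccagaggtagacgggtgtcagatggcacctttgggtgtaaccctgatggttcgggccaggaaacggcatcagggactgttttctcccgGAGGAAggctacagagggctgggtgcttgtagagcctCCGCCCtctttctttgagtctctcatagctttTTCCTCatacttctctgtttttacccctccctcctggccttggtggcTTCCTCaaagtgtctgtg
Itgax, chr7:128129300-128129599, plus strand: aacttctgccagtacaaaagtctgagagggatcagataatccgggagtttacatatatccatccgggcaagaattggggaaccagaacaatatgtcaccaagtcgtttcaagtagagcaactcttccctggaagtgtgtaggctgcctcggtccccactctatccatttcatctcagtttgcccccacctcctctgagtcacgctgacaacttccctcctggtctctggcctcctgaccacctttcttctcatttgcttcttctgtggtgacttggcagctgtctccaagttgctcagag
Icam1, chr9:21015690-21015989, plus strand: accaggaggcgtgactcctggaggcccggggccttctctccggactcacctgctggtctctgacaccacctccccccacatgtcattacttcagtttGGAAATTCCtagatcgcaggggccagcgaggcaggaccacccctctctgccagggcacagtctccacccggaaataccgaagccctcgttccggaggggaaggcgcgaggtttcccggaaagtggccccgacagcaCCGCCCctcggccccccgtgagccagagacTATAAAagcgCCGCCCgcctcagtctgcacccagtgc

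The Itgam window held GAGGAA at 3 places, starting at base -84 on the plus strand and at -15 and 33 on the opposite strand, counted from the start site as base 1. The Itgb7 window, which is not shown, also held GAGGAA, at base 3 on the opposite strand. At least 1 copy of these letters was present in 28.3% of the 32851 promoters of the same length. The Itgax window held none of the 4 motifs. The Icam1 window held GGAAATTCC at base -153, with TATAAA at 14 (13.6% of promoters) and GGGCGG at 2 places (35.7%). GGAAATTCC was held by 0.3% of all promoters, but it is a longer motif than the others, so these shares are not alike. The GENCODE M21 start of Icam1, base 21015985, differs from the start used here. It lies near the end of this window, after the TATAAA match. A match describes these letters only, and no binding was measured.

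Itgb2 RNA, the common β2 chain, was 204, 184 and 181 CPM in sgCtrl livers 5.1, 7.1 and 7.2 and 86.5, 94.2 and 91.6 CPM in sgPrdx2 livers 1.1, 1.3 and 3.2. The groups did not overlap, and the highest sgPrdx2 liver stood far below the lowest sgCtrl liver. The means were 189 ± 12.5 and 90.8 ± 3.89 CPM (SD, n = 3 each), and the fitted log2 fold change was -1.06 (SE 0.13), that is 47.9% of the sgCtrl level. Its counts were among the larger of the family, at 2982 to 9493 per liver. Itgb2 is the gene that was chosen by this fall.

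Itgam, the α chain of Mac-1, was 46.4, 41.1 and 40.5 CPM in sgCtrl and 18.4, 23.4 and 12.4 CPM in sgPrdx2 livers. Every sgPrdx2 liver lay below every sgCtrl liver, with liver 3.2 the lowest. Itgam fell to 42.3% of the sgCtrl level (log2 fold change -1.24, SE 0.22, edgeR adjusted p = 0.0394), the most negative value of the 9 genes with all 6 livers. Without liver 3.2 its log2 fold change was -1.02 (edgeR adjusted p = 0.0376), close to the -1.06 of Itgb2 in the same fit. Leaving out any other liver ended the call (edgeR adjusted p up to 0.147), with log2 fold changes of -1.18 to -1.45. In 4 of these 5 fits edgeR called 0 genes of the whole table, although at least 3114 had an unadjusted p under 0.05. In GENCODE M21 a read-through gene, Gm49368, covers 68.7% of the Itgam exon bases, and it has no row in the count table, so that reads of such a transcript cannot be told apart from Itgam here.

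Itgax, the α chain CD11c, was 111, 98.2 and 90.5 CPM in sgCtrl and 60.1, 62.3 and 80.3 CPM in sgPrdx2 livers. The groups did not overlap, but liver 3.2 was close to the lowest control. The log2 fold change was -0.56 (SE 0.16) and did not pass the test (edgeR adjusted p = 0.0875). Without liver 3.2 it was -0.69 with an edgeR adjusted p of 0.0433. Leaving out any other liver gave an edgeR adjusted p of 0.156 to 0.236. With each library's trend on exon length removed, the log2 fold change was -0.50 (edgeR adjusted p = 0.109). Of the 50-base stretches of Itgax exons, 8.02% also occur in Itgad, which had at most 12 counts in any liver.

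Itgal, the α chain of LFA-1 on lymphocytes and other leukocytes, was 40.9, 52.2 and 54.8 CPM in sgCtrl and 35.8, 39.9 and 25.1 CPM in sgPrdx2 livers. All 3 sgPrdx2 livers were lower, although liver 1.3 was close to the lowest control, 5.1. The log2 fold change was -0.55 (SE 0.20, edgeR adjusted p = 0.142), and without liver 3.2 it was -0.37 (SE 0.15, edgeR adjusted p = 0.179).

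**Figure D1:**
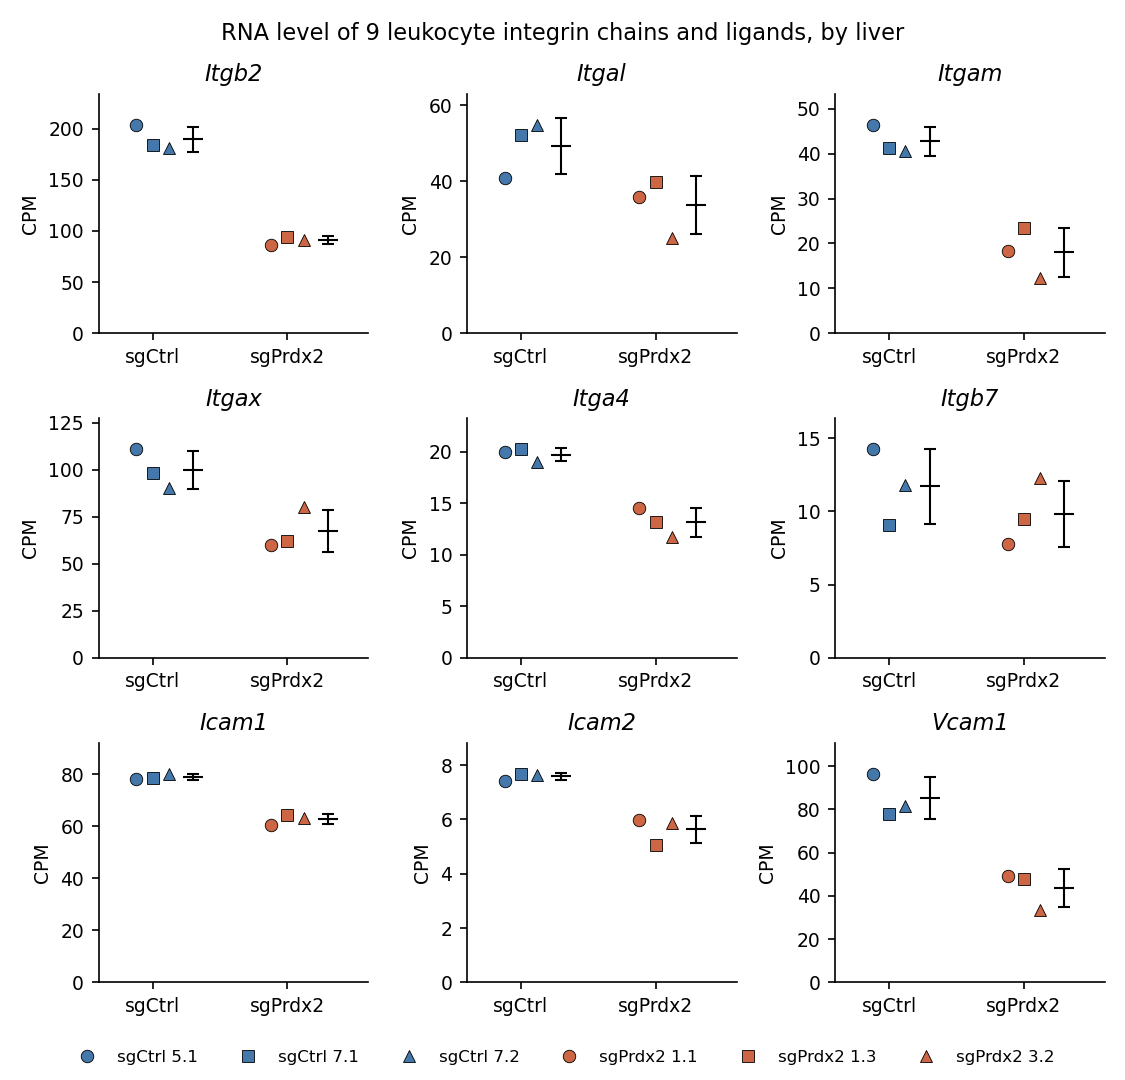
RNA level (CPM, TMM-normalized, linear axes from 0) of the 9 genes in the 3 sgCtrl (blue) and 3 sgPrdx2 (orange) livers, each symbol 1 liver and the black bar the mean ± SD. In 8 of the 9 panels, with that of Itgb2 (chosen by its fall) among them, every sgPrdx2 liver lies below every sgCtrl liver. Of all tested genes 17.5% were lower in this way. In the Itgb7 panel the groups overlap.

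The members of the β2 set were next compared with each other per kilobase of exon, the scale on which levels of genes of different length can be set side by side. Itgb2 was the most abundant of the 9 members in either group, with 62.1 ± 4.09 CPM per kb in sgCtrl and 29.7 ± 1.28 CPM per kb in sgPrdx2 livers (SD, n = 3 each). Of its α partners, Itgax was highest with 20.8 ± 2.13 and 14.1 ± 2.30 CPM per kb. Itgam stood at 8.50 ± 0.64 and 3.59 ± 1.09 CPM per kb, and Itgal at 7.51 ± 1.13 and 5.12 ± 1.16 CPM per kb. Itgam exceeded Itgal in the mean of the sgCtrl group and was below it in each of the 3 sgPrdx2 livers, but in sgCtrl livers the ranges of the pair overlapped.

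The share of Itgam among the β2 α chain transcripts (Itgal, Itgam, Itgax and Itgad, per exon length) was 24.0%, 22.4% and 22.9% in sgCtrl livers and 16.9%, 19.6% and 10.7% in sgPrdx2 livers. It was lower in each sgPrdx2 liver than in each control (means 23.1% ± 0.80 and 15.7% ± 4.57, SD, n = 3 each, two-sided exact permutation p = 0.1, the smallest that 3 livers against 3 can give). The share of Itgax was 59.8%, 55.9% and 53.4% in sgCtrl and 57.8%, 54.7% and 72.6% in sgPrdx2 livers, with overlapping groups (exact permutation p = 0.6). The share of Itgal overlapped as well, at 16.1% to 23.7% against 16.6% to 25.6% (exact permutation p = 0.5). The ratio of Itgam to Itgax, neighbours on chromosome 7, was 0.401, 0.401 and 0.428 in sgCtrl and 0.292, 0.359 and 0.147 in sgPrdx2 livers (exact permutation p = 0.1).

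The α chains summed over Itgb2, per exon length, gave a ratio of 0.578, 0.607 and 0.596 in sgCtrl and of 0.764, 0.768 and 0.767 in sgPrdx2 livers. Itgb2 was thus lower by a larger factor than the sum of its partners in every sgPrdx2 liver, including liver 3.2, and the ratio varied little within a group (SD 0.0148 and 0.0023). This ratio contains the gene chosen by its fall and is given with no test.

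**Figure D2:**
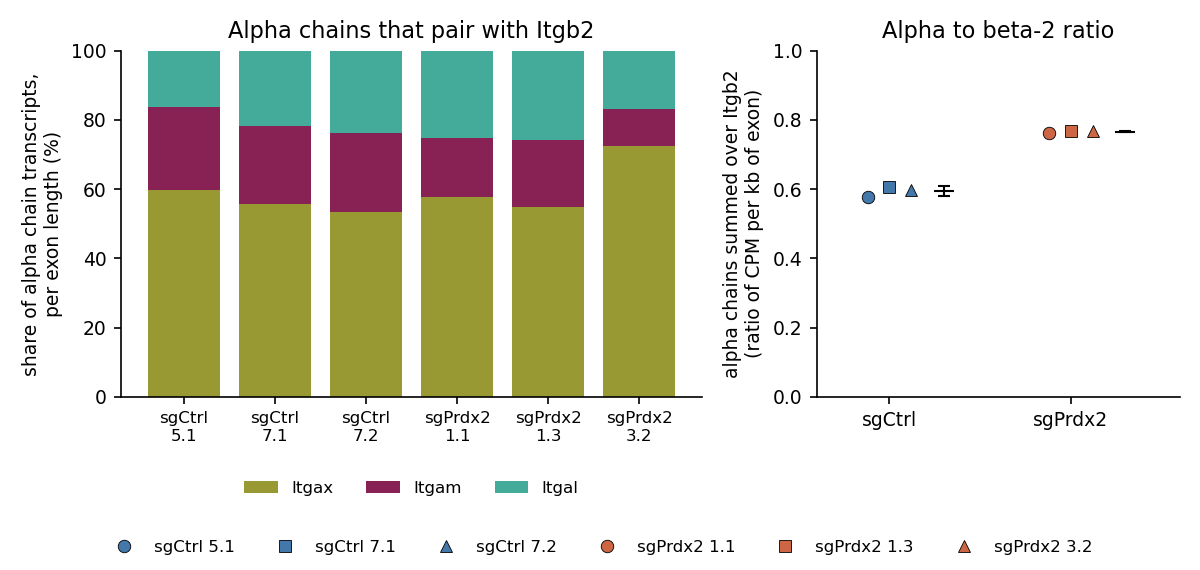
Left, share (%) of Itgax, Itgam and Itgal among transcripts of the α chains that pair with Itgb2, per exon length, in each liver (Itgad, under 1%, is not drawn). Right, the α chains summed over Itgb2 (ratio of CPM per kb of exon), each symbol 1 liver and the bar the mean ± SD: the Itgam share is smallest in liver 3.2 (10.7%), and the ratio is at most 0.607 in the sgCtrl and at least 0.764 in the sgPrdx2 livers.

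Itga4, the α4 chain of the VCAM-1 receptor on lymphocytes and monocytes, was 19.9, 20.2 and 19.0 CPM in sgCtrl and 14.5, 13.2 and 11.7 CPM in sgPrdx2 livers. The groups were well separated and the spread within each was small. The log2 fold change of -0.58 (SE 0.13) just missed the threshold (edgeR adjusted p = 0.0522). Without liver 3.2 it was -0.50 with an edgeR adjusted p of 0.0486. Leaving out any other liver gave an edgeR adjusted p of 0.113 to 0.165. With each library's trend on exon length removed, the log2 fold change was -0.36 (edgeR adjusted p = 0.0933). Cerkl, on the opposite strand, overlaps 8.04% of the Itga4 exon bases, and Cerkl had 29 to 132 counts per liver, against 382 to 998 for Itga4.

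Itgb7, the β7 chain of gut-homing lymphocytes, was the member whose groups overlapped. It was 14.2, 9.08 and 11.8 CPM in sgCtrl and 7.77, 9.47 and 12.3 CPM in sgPrdx2 livers. The log2 fold change was -0.25 (SE 0.22, edgeR adjusted p = 0.507), so that both 0 and the value of Itga4 lay within 2 SE of it. Itgb1, the other partner of α4, is found in most cell types and was 261, 269 and 267 CPM in sgCtrl and 222, 218 and 185 CPM in sgPrdx2 livers (log2 fold change -0.35, SE 0.13, edgeR adjusted p = 0.162). Per exon length Itgb1 stood at 65.1 ± 1.01 CPM per kb in sgCtrl livers and Itgb7 at 4.23 ± 0.93 CPM per kb, so that β1 was by far the more abundant partner chain in this tissue. The ratio of Itgb7 to Itga4 overlapped between the groups (3.61, 2.27 and 3.14 against 2.71, 3.62 and 5.27, exact permutation p = 0.4).

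Vcam1, the endothelial and Kupffer cell ligand of α4 integrins, was 96.4, 78.0 and 81.7 CPM in sgCtrl and 49.5, 47.7 and 33.5 CPM in sgPrdx2 livers. The groups did not overlap, and liver 3.2 was again the lowest. Vcam1 fell to 51.0% of the sgCtrl level (log2 fold change -0.97, SE 0.18, edgeR adjusted p = 0.0409). Without liver 3.2 the log2 fold change was -0.80 (edgeR adjusted p = 0.0389), and without any other liver the call was lost (edgeR adjusted p up to 0.147) at log2 fold changes of -0.87 to -1.07.

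Icam1, a ligand of LFA-1 and Mac-1 induced by inflammatory cytokines, was 78.2, 78.5 and 80.2 CPM in sgCtrl and 60.7, 64.5 and 63.3 CPM in sgPrdx2 livers. Every sgPrdx2 liver was lower and the spread within groups was the smallest of the family relative to the mean, yet the difference did not pass the test (log2 fold change -0.33, SE 0.11, edgeR adjusted p = 0.13). Icam2, a ligand present on resting endothelium, was 7.42, 7.67 and 7.65 CPM in sgCtrl and 5.97, 5.07 and 5.87 CPM in sgPrdx2 livers. It was likewise lower in each sgPrdx2 liver without passing the test (log2 fold change -0.43, SE 0.15, edgeR adjusted p = 0.128), and rested on the fewest counts of the family, 191 to 402 per liver.

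Per exon length, Icam1 was the most abundant of the 3 ligands, at 18.1 ± 0.24 CPM per kb in sgCtrl and 14.4 ± 0.45 in sgPrdx2 livers. Icam2 was the least, at 3.98 ± 0.07 and 2.96 ± 0.26 CPM per kb (SD, n = 3 each). Vcam1 lay between them, at 10.9, 8.79 and 9.21 CPM per kb in sgCtrl and 5.58, 5.38 and 3.77 CPM per kb in sgPrdx2 livers. The ratio of Vcam1 to Icam1 was 0.606, 0.489 and 0.501 in sgCtrl and 0.401, 0.364 and 0.26 in sgPrdx2 livers, lower in each sgPrdx2 liver (exact permutation p = 0.1, the smallest possible). The inducible ligands thus differed in how far they stood below the control level. Across all 9 genes the order in sgCtrl livers was Itgb2, Itgax, Icam1, Vcam1, Itgam, Itgal, Itgb7, Icam2 and Itga4, in which the ranges of the neighbours Vcam1 and Itgam, Itgam and Itgal, and Itgb7 and Icam2 overlapped. In sgPrdx2 livers Icam1 came before Itgax and Itgal before Vcam1, each with overlapping ranges.

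**Figure D3:**
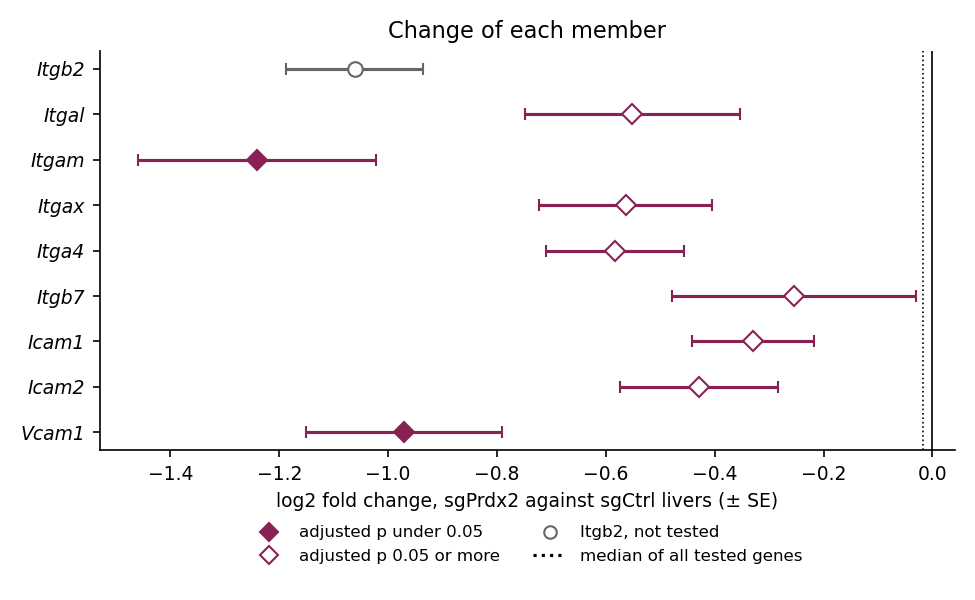
Log2 fold change of each member in sgPrdx2 against sgCtrl livers, with bars of 1 SE, filled where the edgeR adjusted p was under 0.05. Itgam (-1.24) and Vcam1 (-0.97) are filled, Itgb2 (grey circle, -1.06) is drawn without a test, and the dotted line marks the median of all tested genes (-0.02).

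Of the 8 members other than Itgb2, 2 fell and none rose at an edgeR adjusted p under 0.05. Over all 17032 tested genes 3.33% were called in either direction and 1.54% as lower. Without overlap between the groups, 7 of these 8 were lower in sgPrdx2 livers, against 17.5% of all tested genes. The median log2 fold change of the 8 was -0.56, and that of all tested genes -0.02. Scaling by total counts alone moved the median of all genes to -0.39, and all 9 members kept a negative log2 fold change under each of the 3 other scalings run (RLE, upper-quartile and total counts). At an unadjusted p under 0.05, 7 of the 8 passed, against 24.9% of all tested genes. Hepatocyte RNA moved the other way: 10 hepatocyte genes summed to 80110 to 86690 CPM in sgCtrl livers and to 137500 to 182400 CPM in the sgPrdx2 livers, and the part of this shift in the members' values was not tested. In whole tissue, fewer cells of a type and less RNA per cell cannot be told apart.

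The members were therefore set beside genes that mark leukocytes. In the pan-leukocyte list (10 genes, no member among them) all 10 log2 fold changes were negative with a median of -0.59. Of the 10, 3 fell, where 1.54% of all tested genes were called as lower: Cd53 (log2 fold change -0.88, edgeR adjusted p = 0.0409), Lcp1 (-0.61) and Laptm5 (-0.76). The summed level of the 10 genes was 804 to 978 CPM in sgCtrl and 559 to 639 CPM in sgPrdx2 livers. The macrophage list behaved alike, with 10 of 10 negative, a median of -0.52 and summed levels of 3942 to 4430 against 2778 to 3908 CPM, and Mpeg1, a pore-forming protein of macrophages, fell (-0.82, edgeR adjusted p = 0.0394). In the T and NK cell list 1 of 12 genes fell, Cd8a, and the summed level of 27.3 to 32.8 CPM in sgPrdx2 livers overlapped that of 31.2 to 47.2 CPM in sgCtrl livers. Of 10 neutrophil markers 6 were tested, of which edgeR and DESeq2 called 0. An unadjusted edgeR p under 0.05 was found for 3 of them (24.9% of all tested genes), with negative values for Ltf and Cxcr2 and a positive value for Elane. Levels within this list differed, with at most 2 counts of Ly6g, 12 of Mpo and 6 of Camp in any liver. S100a8 had 129 to 289 counts per liver and S100a9 had 143 to 328, each with overlapping groups. The summed list was at most 14.2 CPM. Dendritic cell genes, which are relevant to Itgax, had a median of -0.30 over 7 genes, of which edgeR and DESeq2 called 0 and 0 had an unadjusted p under 0.05. The 6 B and plasma cell genes had a median of 0.43, with 0 calls by either tool and 1 unadjusted p under 0.05. The part of leukocyte content in the falls of the members was not tested. The ratios that follow set members beside leukocyte genes and do not separate cell number from RNA per cell.

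Each member was then expressed relative to the mean of the 10 pan-leukocyte genes in the same liver, on the log2 scale, with 8 tests, 1 for each member other than Itgb2. On this scale Itgam was -0.70, -0.55 and -0.83 in sgCtrl and -1.22, -0.997 and -2.01 in sgPrdx2 livers, lower in each sgPrdx2 liver by 0.72 in the mean (means -0.69 and -1.41, exact permutation p = 0.1). Itgb2, without a test, was 1.43, 1.61 and 1.33 in sgCtrl and 1.01, 1.01 and 0.88 in sgPrdx2 livers, and did not overlap either. Itgal, Itgax and Itga4 showed differences of 0.0024, -0.00093 and -0.02 with overlapping groups (exact permutation p = 1 for each). Itgb7, Icam1 and Icam2 had mean differences of 0.32, 0.24 and 0.14 with overlapping groups, and Vcam1 of -0.42, with overlap as well (exact permutation p = 0.2).

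With the leukocyte references used, the groups overlapped for Itgb2 under 1 of 3 and for Itgam under none. Relative to Ptprc (CD45) alone, which was 37.9, 44.4 and 26.7 CPM in sgPrdx2 against 71.1, 70.1 and 58.6 CPM in sgCtrl livers, Itgam was still lower in each sgPrdx2 liver (mean difference -0.39, exact permutation p = 0.1). Itgb2 relative to Ptprc overlapped between the groups (mean difference -0.16), with liver 3.2 at 1.78, above all controls, and livers 1.1 and 1.3 at 1.19 and 1.08, below them. Ptprc was lowest in liver 3.2, the library in which longer transcripts were lower. Whether that trend had a part in the Ptprc level was not tested. Relative to the mean of 10 macrophage genes, Itgam differed by -0.71 (exact permutation p = 0.1) and Itgb2 by -0.48, neither with overlap. Liver 3.2 again had the lowest Itgam value. Of the other members, Itgb7 and Icam1 relative to Ptprc were higher in each sgPrdx2 liver (mean differences 0.65 and 0.57, exact permutation p = 0.1 each), and Vcam1 relative to Ptprc differed by -0.09 with overlap (exact permutation p = 0.5). Itgal, Itgax, Itga4 and Icam2 relative to Ptprc had mean differences of 0.33, 0.33, 0.31 and 0.47, with overlap.

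**Figure D4:**
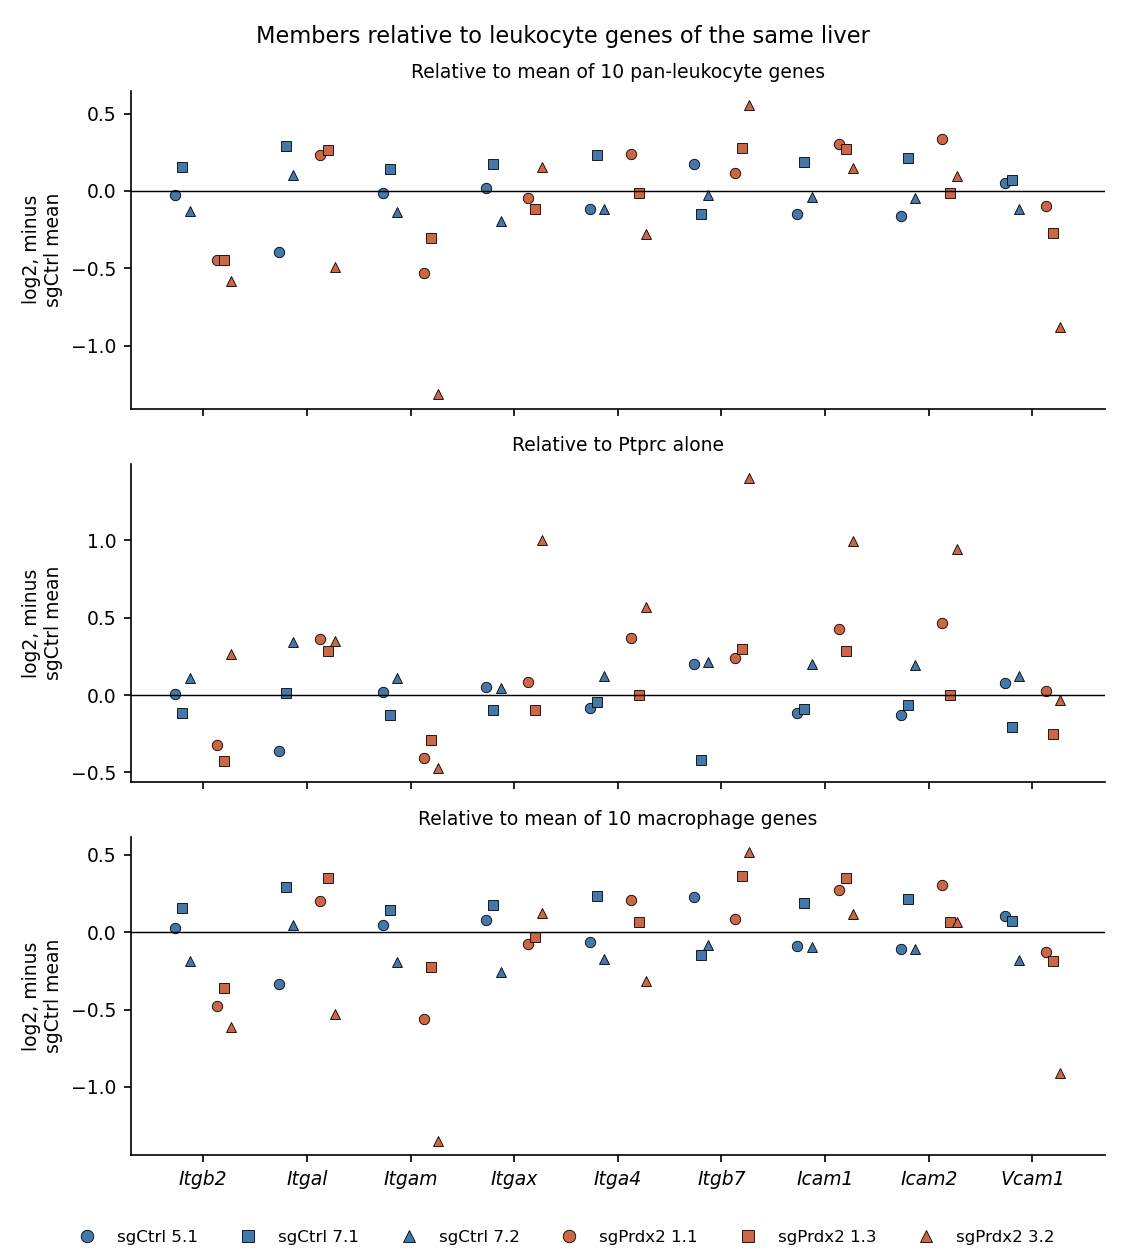
Log2 level of each member relative to the mean of 10 pan-leukocyte genes (top), to Ptprc alone (middle) and to the mean of 10 macrophage genes (bottom) in the same liver, with the sgCtrl mean of each gene set to 0. Each symbol is 1 liver: Itgam lies below all controls in each sgPrdx2 liver in all 3 panels, Itgb2 in the top and bottom panels, and Itgal, Itgax and Itga4 scatter around 0 in the top and bottom panels.

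For the ligands, which endothelium carries, an endothelial reference was used as well. The 12 endothelial markers had a median log2 fold change of -0.40 and summed to 587 to 596 CPM in sgCtrl and 471 to 535 CPM in sgPrdx2 livers. Pecam1, which is also on leukocytes and platelets, was the 1 marker of the 12 that fell (-0.77, edgeR adjusted p = 0.0423), where 1.54% of all tested genes did. Relative to the mean of these markers Vcam1 was 1.58, 1.31 and 1.35 in sgCtrl and 0.93, 0.94 and 0.82 in sgPrdx2 livers, lower in each (mean difference -0.52, exact permutation p = 0.1). Icam1 and Icam2 differed by 0.14 and 0.04 with overlapping groups (exact permutation p = 0.6 and 0.9). Whether Kupffer cells, the resident macrophages that can also carry VCAM-1, had a part in this was not tested. Their 5 markers had a median of -0.33, with 0 calls by edgeR or DESeq2 and 0 unadjusted p under 0.05, and ranged widely among the controls, from 144 to 521 CPM in sum, against 162 to 284 CPM in sgPrdx2 livers. The stellate cell and fibroblast list had 7 of 9 negative log2 fold changes, a median of -0.47 and 0 calls by edgeR. DESeq2 called 2 (13.8% of all genes with a DESeq2 adjusted p were called). An unadjusted edgeR p under 0.05 was found for 5 (24.9% of all tested genes). Summed levels were 1373 to 1568 against 1053 to 1160 CPM. The part of these cells in the result was not tested.

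The rest of the adhesion pathway was read from 4 lists of 67 genes, of which 64 were tested, 7 fell and 1 rose. Over all 17032 tested genes, 1.54% were called as lower and 3.33% in either direction. Among 20 other integrin subunits edgeR called none of the 19 tested, with a median log2 fold change of -0.34, while 8 had an unadjusted p under 0.05 (24.9% of all tested genes did) and DESeq2 called 4 as lower and 1 as higher (13.8% of all genes with a DESeq2 adjusted p were called). The closest to the threshold were Itga6, a laminin receptor chain (-0.74, edgeR adjusted p = 0.0555), Itga2, a collagen receptor chain (-1.24, 0.066), and Itga9 (-0.53, 0.0788). Itgae, which pairs with β7 on tissue-resident lymphocytes, was 2.23 to 5.09 CPM in sgCtrl and 2.61 to 2.71 CPM in sgPrdx2 livers (-0.36, edgeR adjusted p = 0.49), with overlap.

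In the list of other integrin ligands, 11 of 13 genes were tested, 1 fell and 1 rose, and the median was -0.002. Jam2, an endothelial junction protein that binds α4β1, was 34.9, 31.3 and 27.9 CPM in sgCtrl and 18.0, 15.6 and 12.2 CPM in sgPrdx2 livers (log2 fold change -1.04, SE 0.17, edgeR adjusted p = 0.0366). Fgb, the fibrinogen β chain made by hepatocytes and a ligand of Mac-1 as part of fibrinogen, rose by 0.83 (edgeR adjusted p = 0.0491). Fgg (0.85, edgeR adjusted p = 0.065) and Fga (0.72, 0.0864) were higher in each sgPrdx2 liver without passing the test. The hepatocyte list, to which these levels can be compared, had a median of 0.97 with 5 of 10 genes risen. Over all 17032 tested genes, 305 were called as higher. Madcam1, the gut ligand of α4β7, had at most 11 counts per liver and was not tested.

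Of 24 genes that switch integrins from the resting to the binding state or signal from them, 5 fell and none rose. Over all tested genes 1.54% were called as lower. The median of the 24 was -0.45. Without overlap between the groups, 16 were lower in sgPrdx2 livers, against 17.5% of all tested genes. Another 2 were higher in each sgPrdx2 liver without passing the test, Rasgrp2 (0.35, edgeR adjusted p = 0.154) and Cyth1 (0.23, 0.275). Syk, a kinase downstream of β2 integrins, was 47.5, 45.5 and 50.1 CPM in sgCtrl and 27.8, 28.5 and 26.7 CPM in sgPrdx2 livers (log2 fold change -0.79, SE 0.11, edgeR adjusted p = 0.0328). Apbb1ip (RIAM), which links Rap1 to talin, fell by 0.76 (edgeR adjusted p = 0.0358) and its partner Fyb (ADAP) by 0.72 (edgeR adjusted p = 0.0455). The adaptor Lcp2 (SLP-76) and the actin regulator Was were also called. The direct activators of β2 integrins, Fermt3 (kindlin-3, -0.54, edgeR adjusted p = 0.118) and Tln1 (talin, -0.40, 0.125), did not pass. Most of these genes are expressed mainly in leukocytes, and 1 of them, Vav1, is also in the pan-leukocyte list.

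Selectins and their ligands, which slow leukocytes before integrins hold them, had a median of -0.69 over 10 genes. Of these Gcnt1, which builds the sugar core of selectin ligands, fell (-0.96, edgeR adjusted p = 0.0455). Podxl (-0.76, 0.0728) and Selplg, the P-selectin ligand PSGL-1 (-0.62, 0.0756), were lower in each sgPrdx2 liver without passing the test.

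**Figure D5:**
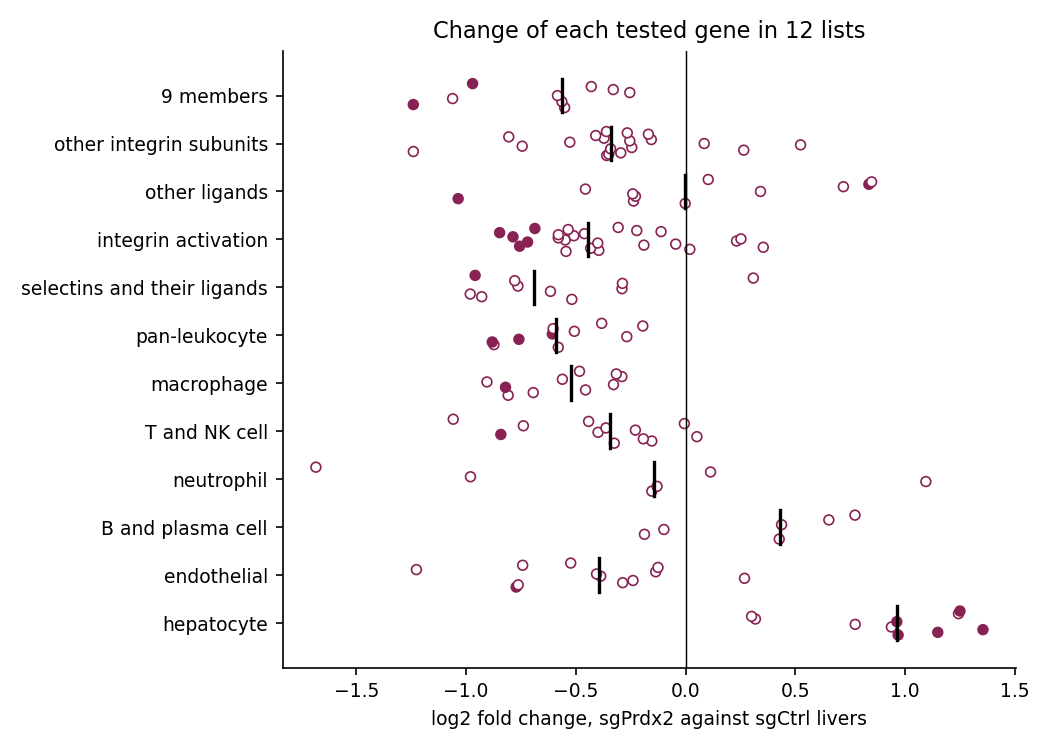
Log2 fold change in sgPrdx2 against sgCtrl livers of each tested gene (circle) in 12 lists, filled where the edgeR adjusted p was under 0.05 (Itgb2 is drawn open, since it was not tested), with the list's median as a black line. Medians lie between -0.69 and -0.34 in the lists of integrin subunits, integrin activation, selectins, pan-leukocyte and macrophage genes, at 0.43 in B and plasma cell and at 0.97 in hepatocyte genes.

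Over the 6 livers the members moved together to different degrees. Among pairs of members, the Pearson correlation of log2 CPM with Itgb2 was 0.98 for Icam1, 0.93 for Itgam, 0.94 for Itga4 and 0.93 for Vcam1, and 0.50 for Itgb7. Among the 14122 genes that averaged 1 CPM or more, the 5 most like Itgb2 were C5ar1, Agpat4, Runx1, Myo1f and Nckap1l (r of 0.995 to 0.997). C5ar1, the receptor of complement fragment C5a, averaged 21.4 CPM in sgCtrl and 9.80 CPM in sgPrdx2 livers. The 5 most like Vcam1 were Plekhb2, Lamb1, Nrarp, Cyth3 and 1110002L01Rik (r of 0.996 to 0.998). With each group centred on its own mean, r was 0.70 to 0.97 for the genes like Itgb2 and 0.98 to 0.99 for those like Vcam1. These genes were picked by their r over the same 6 livers, so a high centred r is partly built in. The correlations among members were not centred and include the difference between the groups. These correlations are descriptions over 6 livers in 2 groups, and all genes of a liver share its library, with its depth and its trend on transcript length.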

How the data were processed

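RNA-Seq of whole livers from 3 sgCtrl and 3 sgPrdx2 mice was analysed. Groups and mouse numbers were taken from the sample labels, and the numbers pair no mice. The authors deposited raw counts of reads per gene symbol, as whole numbers without normalization, for 6 livers, and all count columns were used (0 left unmapped). The submitters' processing notes list HISAT2, HTSeq and DESeq2 and the build GRCm38, without versions. Annotation and strandedness are not given in the sources used here, so that reads of a gene and an overlapping partner cannot be told apart. A second deposited table holds the authors' own DESeq2 comparison (mean, log2 fold change, standard error, statistic and p-values) and was not used.

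The edgeR package (4.0.16, under R 4.3.3) was used. Low counts were removed with filterByExpr (minimum count 10), libraries were normalized by TMM, and groups were compared by the quasi-likelihood test (glmQLFit, glmQLFTest) over 6 livers with no covariate, with Benjamini-Hochberg adjustment over 17032 genes and calls at an adjusted p under 0.05. SE was taken as log2 fold change over the root of F. Log2 CPM used a prior count of 2. Ratios and relative levels were compared by exact permutation tests (two-sided), which cannot give a p below 0.1 here. The biological coefficient of variation was 0.213. With counts drawn at random for 16808 genes and 200 genes changed 4-fold, edgeR found 192 (96%) with 12 others, and DESeq2 found 195 with 43 others. A 4-fold change is larger than that of any member, so these shares do not tell how often changes of the members' size would be found.

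The members, lists and tests were chosen with earlier results of these data known. All 9 members, up to 3 genes of the smallest p in a list, and the 5 genes most like Itgb2 and Vcam1 over the 6 livers were named. Others (Itgb1, Itgad, Itgae, Fga, Fermt3, Tln1, Lcp2, Was, Rasgrp2, Cyth1, Ptprc, neutrophil markers, Madcam1, Elane, Cerkl, Gm49368) were named after their values were seen or as partners of a member. Exon lengths (union of exons, GENCODE M21) were found for 97.1% of tested genes. They may differ from the authors' annotation, and long untranslated ends, as in Itga4, lower a level per kb.

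Alternatives were RLE, upper-quartile and total-count scaling, no filter, at least 10 counts in every liver, DESeq2 1.42.0, an adjusted p under 0.1, each liver left out, and other leukocyte references. Removal of a per-library trend on exon length was chosen only after seeing the data.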

Additional observations from a re-analysis of the deposited data

How the results depend on the processing

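No paired analysis was possible because the mice of the 2 groups share no number. All 9 members kept a negative log2 fold change in all fits run. Calls among the 8 members other than Itgb2 were 2 as reported, 7 with total-count scaling, 4 with DESeq2 (Itgam, Itgax, Itga4 and Vcam1), 4 at an adjusted p under 0.1, 3 with upper-quartile scaling or no filter, and 2 after removal of the exon length trend. Leaving out 1 liver gave 0 to 4 such calls: 0 by edgeR when any liver other than 3.2 was left out (with 4 to 7 of the 8 at an unadjusted p under 0.05), and 4 without 3.2. In the 4 pathway lists, calls were 8 as reported, 37 with total-count scaling, 15 with no filter, 24 with DESeq2, 21 at an adjusted p under 0.1, and 0 to 5 with 1 liver left out. Over all genes, calls were 567 (262 lower) as reported, 3247 (3041 lower) with total-count scaling, 1128 (484) with no filter, 2118 (906) with DESeq2, 1767 (803) at an adjusted p under 0.1, and 0 to 619 (0 to 295) with 1 liver left out, when 3114 to 4436 genes had an unadjusted edgeR p under 0.05. Total-count scaling shifts the median of all genes by -0.37. Leaving out any liver leaves 2 against 3, but the calls over all genes depended on which liver was left out. They were 619 without sgPrdx2 liver 3.2, 394 without sgCtrl liver 7.1 and 0 without any of the others. Why the calls differed between settings was not tested. Relative to leukocyte genes, 3 differences near 0 changed sign: Itgax (0.33) and Itga4 (0.31) against Ptprc alone, and Itgax (0.0050) against the macrophage list. With 3 livers a group, a member's fold change had an SE of 0.11 to 0.22, which limits which differences could be called.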
